A study of Mus musculus with 15 samples.

Results

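The replication-dependent histone genes encode the core histones H2A, H2B, H3 and H4 that package newly copied DNA. Members were taken by symbol, as the genes named Hist1h2 to Hist4h4 or H2ac, H2bc, H3c and H4c in the deposited tables, with pseudogenes marked -ps left out and at least 10 counts summed over a table. Of 55487 mouse genes listed, 60 had such a name. In the table of group 1 54 of them were members (16 H2A, 15 H2B, 12 H3 and 11 H4), and in that of group 2 59 were (19 H2A, 16 H2B, 12 H3 and 12 H4). H2ac1, H2ac19, H2ac21, H2bc1, H2bc15 and Hist1h4m fell short in group 1, with 0 to 8 counts, and H2bc1 alone fell short in group 2, with 5. The linker histone genes of the same clusters carry the symbols H1f1 to H1f5 and so lie outside the rule. They are described at the end as close relatives.

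The libraries were made from erythroid progenitors of mouse fetal liver at E12.5 (days of gestation), strain 129S6/SvEvTac, from wildtype embryos and from mutants of Rpl5, a protein of the large ribosomal subunit. Group 1 of mice held 3 wildtype and 3 mutant libraries of polyA RNA. Group 2 held 3 wildtype, 3 mutant and 3 low-yield mutant libraries of total RNA. The sample sheet of group 2 codes the mutants, low-yield ones included, as Rpl5plusSkax23Jus, while the labels of group 1 give M for its mutants and no allele. The labels define "low-yield" nowhere, and they do not say whether replicates came from separate embryos, so p-values measure only the spread between these libraries. The kind of RNA, the mice and the table differ together between the groups, so levels in group 1 and group 2 were set side by side without a test and their differences in level cannot be told apart from those of the mice.

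Core histone mRNAs of this family are made in S phase, when the cell copies its DNA. Their transcripts normally end in a short stem-loop rather than a poly(A) tail. The stem-loop is bound by SLBP, and the U7 snRNP directs the cut just after it. A library primed or selected on poly(A) therefore recovers little of them, whereas a library of total RNA also recovers transcripts without a tail. Some family members also make longer, polyadenylated transcripts, above all in cells that have stopped dividing. Red cell progenitors of the fetal liver divide rapidly as they mature.

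The stem-loop was searched on the sense strand of the GENCODE M21 transcripts (GRCm38) as a run of 16 bases, namely GG, 3 free bases, TT, 1 free base, T, 1 free base, A, 3 free bases and CC. It was found in 39 of the 60 named genes (65.0%), against 3.65% of all 55450 GENCODE genes, whose transcripts are of every length. By class it was found in 10 of 19 H2A, 9 of 17 H2B, 9 of 12 H3 and 11 of 12 H4 genes. Most genes without a match have an annotated transcript that stops near the end of the reading frame (312 to 488 bases). The exceptions, all H2B genes, were H2bc21, H2bc4, Hist1h2bq and Hist1h2br, whose longest transcripts are 1156 to 2620 bases long. The stem-loops below belong to members on which the later comparisons turn, and capitals mark the stem-loop. All 11 H4 stem-loops found begin with GGCCC or GGTCC, and those found in H2A, H2B and H3 genes with GGCTC.
Hist1h2ap (chr13:21833029-21833044, minus strand): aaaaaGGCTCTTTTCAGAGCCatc
H2ac6 (chr13:23683477-23683492, minus strand): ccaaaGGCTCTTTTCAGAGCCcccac
H2bc3 (chr13:23747203-23747218, plus strand): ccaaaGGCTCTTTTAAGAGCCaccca
H4c8 (chr13:23531458-23531473, plus strand): ccaaaGGCCCTTTTCAGGGCCgccca
H4c4 (chr13:23581950-23581965, plus strand): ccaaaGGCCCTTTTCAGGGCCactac
H4c11 (chr13:21735437-21735452, plus strand): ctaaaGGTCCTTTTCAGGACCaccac
The annotated transcript of Hist1h2ap ends 3 bases after its stem-loop, that of H4c8 46 bases after it, that of H4c11 385, that of H4c4 770 and that of H2ac6 2010. For H2bc21 no stem-loop matched, and its transcript carries a poly(A) signal 16 bases from its end, shown here with the signal in capitals.
H2bc21 (chr3:96223717-96223722, plus strand): tattattattAATAAAgttaccgatt

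Promoters of the members were read from RefSeq (GRCm38.p6) for 53 of the 60 genes, and the 250 bases before each start were searched on both strands. The letters GGTCCG, the core of the H4 promoter element bound by the factor HINFP, were in 8 of 11 H4 promoters (72.7%), 1 of 10 H3, 1 of 15 H2B and 0 of 17 H2A promoters, against 6.72% of 32851 promoter windows. CCAAT was in 17 of 17 H2A, 15 of 15 H2B, 8 of 10 H3 and 3 of 11 H4 promoters against 33.8% of all windows. The octamer ATTTGCAT, which the factor POU2F1 (Oct-1) binds, was in 7 of 15 H2B, 6 of 17 H2A, 0 of 10 H3 and 0 of 11 H4 promoters against 1.6%. A match is a description of these letters only. The last 100 bases before the start are shown for H4c4, H4c6 and H4c11, 3 of the 5 H4 genes that passed the low-yield test below, with GGTCCG in capitals. The other 2, H4c8 and H4c1, had no such match.
H4c4 (chr13:23581468-23581567, plus strand): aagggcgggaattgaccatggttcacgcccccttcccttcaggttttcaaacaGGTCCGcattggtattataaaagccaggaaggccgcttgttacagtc
H4c6 (chr13:23551669-23551768, minus strand): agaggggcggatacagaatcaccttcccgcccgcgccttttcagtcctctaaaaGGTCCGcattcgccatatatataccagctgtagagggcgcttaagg
H4c11 (chr13:21734934-21735033, plus strand): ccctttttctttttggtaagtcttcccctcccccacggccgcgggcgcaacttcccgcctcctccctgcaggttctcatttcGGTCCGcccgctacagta

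The members are near-copies of each other, which limits how far a value belongs to a single gene. Of all 151-base words (the read length) in a member's transcripts, the share found in no other GENCODE gene had a median of 71.5%. It was at least 80% for 20 of the 60 genes, under 50% for 25, and 0.0% for H2ac18, H2ac19, H2bc18, H3c13 and H3c14. Expected counts divide such reads among the copies by estimation. Sums over a class are spared that division only where the shared words lie within the class. All words of H2ac18 also lie in Gm20633, those of H3c13 and H2bc18 in Gm20628, and those of H3c14 in Gm20634. Gm20634 also holds part of the words of H3c15. These Gm genes are not members, so reads can leave the H2A, H2B and H3 sums. The size of that loss was not tested. Each member's share of unique words is given where it matters.

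The depth was 48510828 to 58513669 counts per library in group 1 and 24954324 to 44827821 in group 2. Rpl5 itself was lower in the mutants of both groups. Its level was 656.3, 668.1 and 744.5 CPM (counts divided by the TMM-adjusted library total and set to a shared scale) in the wildtype and 520.5, 561.3 and 570.4 CPM in the mutant libraries of group 1. In group 2 the wildtype libraries held 324.0, 303.2 and 374.3 CPM, the mutant ones 231.8, 247.9 and 248.4 and the low-yield ones 243.0, 218.7 and 278.1. The log2 fold changes of Rpl5 were -0.32, -0.46 and -0.44 (SE 0.07, 0.10 and 0.10, edgeR adjusted p = 0.00971, 0.0117 and 0.0087). The 12 erythroid markers summed to 4956 to 8105 CPM in wildtype and 2388 to 2918 in mutant libraries of group 1, and to 6756 to 12990, 4074 to 4855 and 3327 to 5059 in the wildtype, mutant and low-yield libraries of group 2. Single markers did not all follow the sums. In the mutants and low-yield mutants of group 2, 5 and 6 of the 12 were called lower, against 2.95% and 5.86% of all genes. In each, 1 was called higher, in the mutants Hbb-bh1 (log2 fold change 0.83, edgeR adjusted p = 0.0209). The 8 granulocyte markers summed to 17.4 to 34.9 CPM in wildtype, 134.8 to 224.8 in mutant and 169.8 to 374 in low-yield libraries of group 2. In group 1 they summed to 80.4 to 627.7 in wildtype and 231.7 to 1202 in mutant libraries. The sums of the 6 megakaryocyte markers did not overlap between the groups of libraries in group 2, at 11.2 to 14.1 CPM in wildtype, 19.4 to 20.5 in mutant and 29.8 to 38.6 in low-yield libraries. They were 13.9 to 25.4 in wildtype and 19.6 to 37.2 in mutant libraries of group 1. Of 5 such markers tested in group 2, 3 had a positive fold change in the mutants and 4 in the low-yield mutants. Of these, 1 and 3 were called higher, against 3.32% and 6.68% of all genes. In the mutants Pf4 had -0.61 and Gp9 -0.22 on the log2 scale. The 8 hepatocyte markers summed to 29.9 to 55.2 CPM in wildtype and, without overlap, 6.58 to 19.0 in mutant libraries of group 1, and to 9.55 to 67.6, 9.44 to 43.2 and 37.5 to 44.5 in the wildtype, mutant and low-yield libraries of group 2. The 7 macrophage markers, with Cd5l at 0 throughout and C1qc at 0 in group 2, stayed at 0.79 to 10.3 CPM. The part of these shifts in the results below was not tested, and in bulk RNA fewer cells of a type and less RNA per cell cannot be told apart.

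Most members were far lower in polyA RNA than in total RNA. In group 1 all members together took 0.0554%, 0.0351% and 0.0542% of the counts of the wildtype libraries and 0.0437%, 0.0417% and 0.0467% of the mutant ones. In group 2 they took 3.26%, 3.11% and 2.84% of the wildtype counts. Of the 56 members with more than 3 counts in the polyA wildtype libraries, the ratio of mean CPM in total RNA to mean CPM in polyA RNA had a median of 444. It was above 100 for 43 of them, among which H2bc15 and H2ac21 were members through group 2 alone. With at least 10 counts in both wildtype sets, a minimum chosen for the members after seeing the data, there were 53 members, with a median ratio of 445, and 40 were above 100. Among 14791 other genes that met the same minimum the median ratio was 1.03, and 17 (0.115%) were above 100. These 17 include the histone relatives H4f16 and H1f1 to H1f5, described at the end. They also include Gm20628, which holds all words of the members H3c13 and H2bc18. The median ratio was 458 over the 37 members with a stem-loop match and 316 over the 19 without one.

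The most abundant members per length of transcript in total RNA were H2ac18 with 4706 ± 757 CPM per kb (mean ± SD, n = 3 wildtype libraries) and H3c13 with 4274 ± 452. The order of these leading members is not firm, since both lie within the spread of each other and neither has unique words. H2ac12 (3421 ± 425), Hist1h4n (3069 ± 94.1), H4c8 (2708 ± 297) and H3c15 (2266 ± 177) came next. The leading H2B genes were lower, at 836 ± 9.26 for H2bc12 and 661 ± 25.9 for H2bc3. No gene dominated: the 4 with the most counts (H2ac18, H3c15, H3c13 and H3c7) held 28.8% of the members' counts in group 2.

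In polyA RNA a few H2A genes held most of what was recovered. Hist1h2ap alone held 63.8% of the members' counts in group 1, and with H2ac12, H2ac13 and H2ac7 86.3%. Per length, wildtype libraries held 647 ± 155 CPM per kb of Hist1h2ap, 148 ± 47.9 of H2ac12 and 74.0 ± 26.8 of H2ac13. All other classes were far below: the highest member was H4c9 for H4 (7.0 ± 1.602), H2bc4 for H2B (4.58 ± 0.689) and H3c3 for H3 (3.87 ± 0.181). The total-to-polyA ratio was 3.01 for Hist1h2ap, 6.22 for H2ac13, 23.1 for H2ac12 and 37.7 for H2ac7. Hist1h2ap shares 91.0% of its words with Hist1h2ao, which had a mean of 0.925 CPM in the same libraries, so the division of reads between these copies is uncertain.

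H2bc21 (formerly Hist2h2be), an H2B gene, was the only member with a higher CPM in polyA than in total RNA. Its level was 7.72, 5.67 and 8.91 CPM in the polyA wildtype libraries and 7.18, 4.13 and 5.50 in the total RNA ones, a ratio of 0.754, with the ranges of the libraries overlapping. The highest ratios rest on few polyA counts over the wildtype libraries, with 4262 for Hist1h2al on 10 counts, 2921 for H4c6 on 9 and 1789 for H4c14 on 37. The other H2B genes with a poly(A) signal and a long annotated transcript spread widely, from 49.3 for H2bc6, 73.6 for Hist1h2bq, 85.4 for H2bc4 (formerly Hist1h2bc) and 97.6 for H2bc9 to 909 for Hist1h2br.

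**Figure D1:**
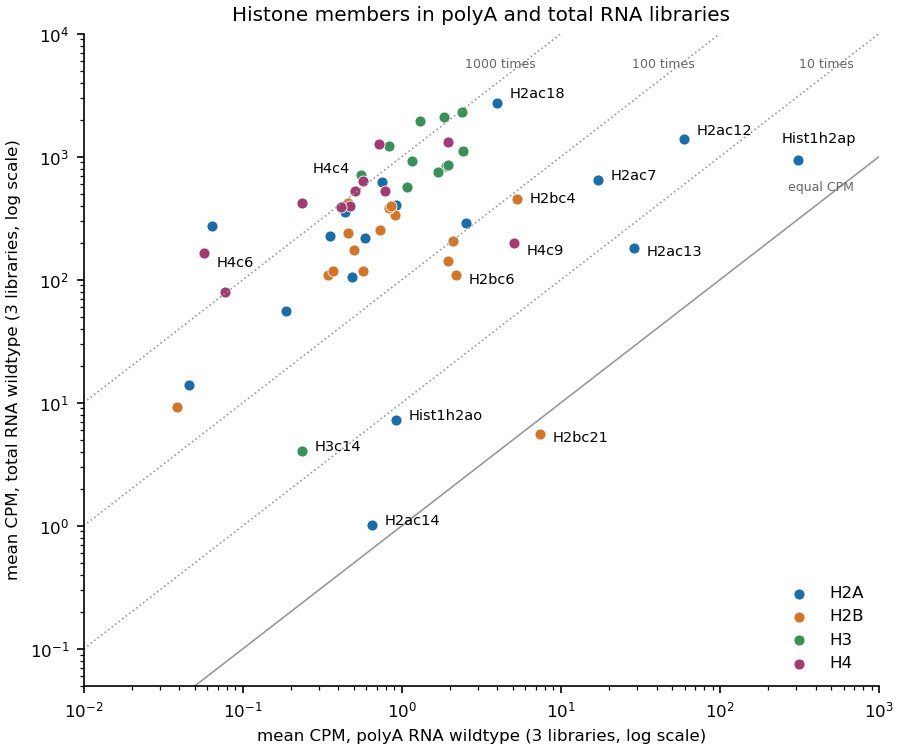
Mean CPM of each member in the 3 wildtype libraries of polyA RNA (x axis, log scale) and of total RNA (y axis, log scale), coloured by class, with lines of equal, 10, 100 and 1000 times the level. Most members lie above the line of 100 times, Hist1h2ap and its H2A neighbours below it, and H2bc21 below the line of equal CPM, while the 3 members with 0 polyA counts are not drawn.

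In polyA RNA the summed levels of the classes did not separate mutant from wildtype libraries. H2A members summed to 1078, 655.8 and 1029 CPM per kb in wildtype and 843, 775 and 909.1 in mutant libraries. H2B members summed to 23.7, 15.1 and 25.6 in wildtype and 18.02, 15.06 and 20.31 in mutant libraries. For H3 the wildtype values were 25.3, 21.3 and 31.9 and the mutant ones 24.6, 27.1 and 29.3. The H4 sums were 19.5, 13.2 and 22.4 against 15.7, 19.4 and 20.3. In each class the groups overlapped, and wildtype replicate 2 was the lowest or close to the lowest library.

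In total RNA every class was lower in the mutant group on average. H4 members summed to 12200, 10840 and 10860 CPM per kb in wildtype and 8732, 7948 and 9542 in mutant libraries, 22.7% lower on average and without overlap. H2B members summed to 5077, 5069 and 5106 in wildtype against 4205, 3806 and 4788, also without overlap. H3 members summed to 21720, 19720 and 17680 in wildtype and 16890, 13220 and 17570 in mutant libraries, which do not overlap by a narrow margin and overlap when sums are not divided by length (12030 against 12020 CPM). H2A was the class whose groups overlapped, at 19230, 17950 and 14850 in wildtype and 14610, 11640 and 15410 in mutant libraries. The mutant mean was 0.801 times wildtype for H2A, 0.839 for H2B, 0.807 for H3 and 0.774 for H4. No test was made on the sums. Other RNAs without a poly(A) tail, picked after their values were seen, moved in both directions. Rpph1, Rn7sk, Rmrp and Scarna2 had means of 3409, 2288, 159.3 and 51.86 CPM in wildtype libraries. Their mutant means were lower, at 2588, 1800, 131.2 and 40.42 CPM. Rn7s1 and Rn7s2 had higher mutant means, at 4705 and 4921 CPM against 4130 and 4869 in wildtype. Whether this bears on the histone sums was not tested.

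The low-yield mutant group did not hold together. All members took 1.83% and 1.45% of the counts of low-yield replicates 1 and 2, the lowest values of group 2, but 2.88% of replicate 3, which lies within the wildtype range of 2.84% to 3.26%. The mutant libraries held 2.55%, 2.21% and 2.77%. Low-yield replicates 1 and 2 were 54.0% below the wildtype mean for H4, 48.1% for H3, 46.4% for H2A and 44.9% for H2B in CPM per kb. Replicate 3 was 15.6% below it for H4, 7.65% for H3, 7.46% for H2A and 5.41% for H2B. The 51 genes of DNA replication and S phase kept this order over a narrower relative range, with replicate 2 lowest and replicate 3 highest. The summed level of these genes was 11280, 10930 and 11500 CPM in low-yield replicates 1, 2 and 3. It was 12580 to 12900 in wildtype and 10770 to 11800 in mutant libraries. Other RNAs without a poly(A) tail, chosen after their values were seen, were Rn7sk at 1072, 814.2 and 1382 CPM and Rmrp at 44.5, 35.3 and 82.4 in the low-yield libraries, against 1765 to 2599 and 133.6 to 182.3 in wildtype. Not all such RNAs were highest in replicate 3. Rn7s1 stood at 2555, 1705 and 786.3 CPM, each below its wildtype values of 3683 to 4641. Scarna2 stood at 47.8, 47.1 and 36.3 CPM, against 43.9 to 63.4 in wildtype. Rn7s2 stood at 2139, 1397 and 5185 CPM, against 4316 to 5267 in wildtype. Their part in the histone levels was not tested. Results on the low-yield group are therefore given below also without replicate 3. That library was set apart by these same histone levels, so counts and p-values without it follow in part from that choice and are not independent evidence of a lower level.

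**Figure D2:**
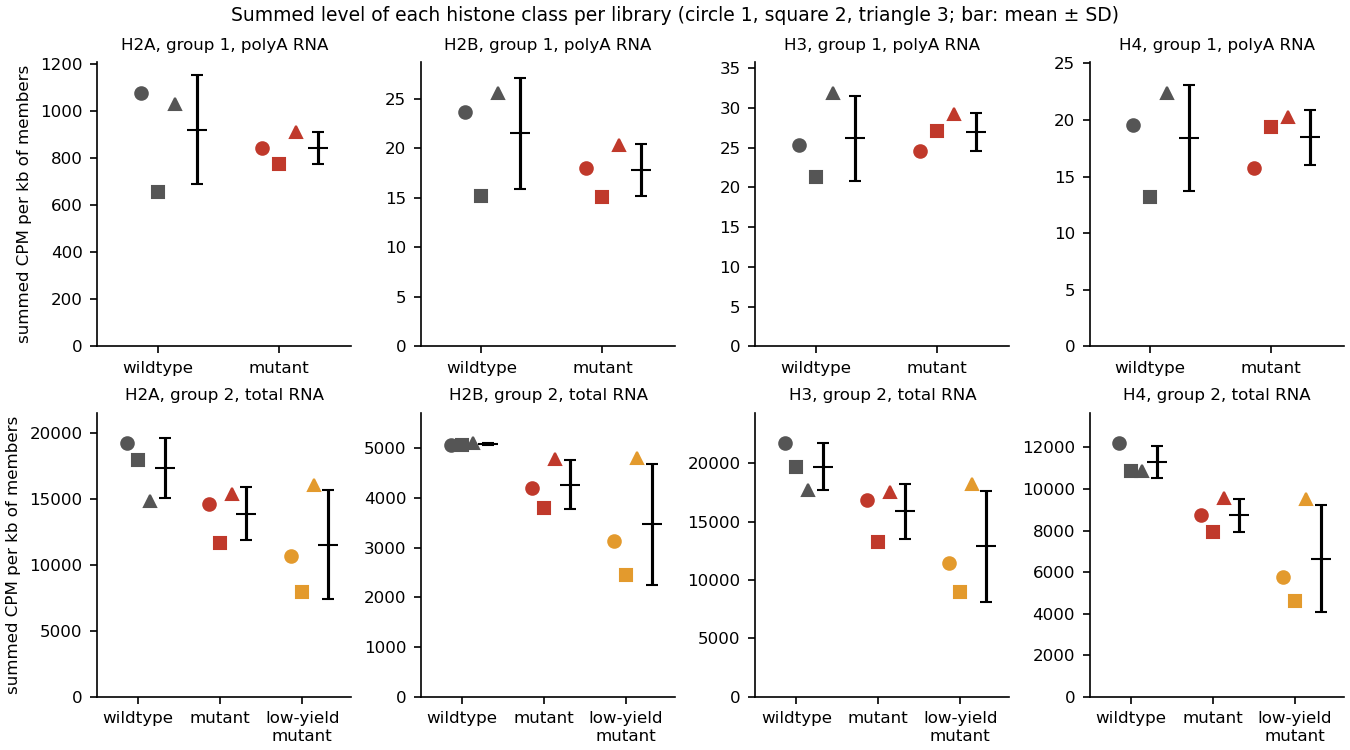
Summed CPM per kb (y axis) of the H2A, H2B, H3 and H4 members in each library of polyA RNA (top) and total RNA (bottom), with bars for the mean ± SD of 3 libraries. In total RNA low-yield replicate 3 (triangle) stands above replicates 1 and 2 in every class, while in polyA RNA wildtype and mutant libraries overlap.

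Most members shared their lowest library in total RNA. Of 59 members 53 had their lowest CPM in low-yield replicate 2 and 36 their highest in wildtype replicate 1. The median log2 ratio of the tested members to their own wildtype mean was 0.10, -0.01 and -0.12 in the wildtype libraries. It was -0.27, -0.52 and -0.17 in the mutant and -0.76, -1.10 and -0.11 in the low-yield libraries. In polyA RNA the scatter among members was wide, with single members between -5.66 and 3.48 around medians of -0.43 to 0.25. Single members in total RNA ran from -3.41 to 1.05. Since members share words and libraries, their number is not a number of independent observations.

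**Figure D3:**
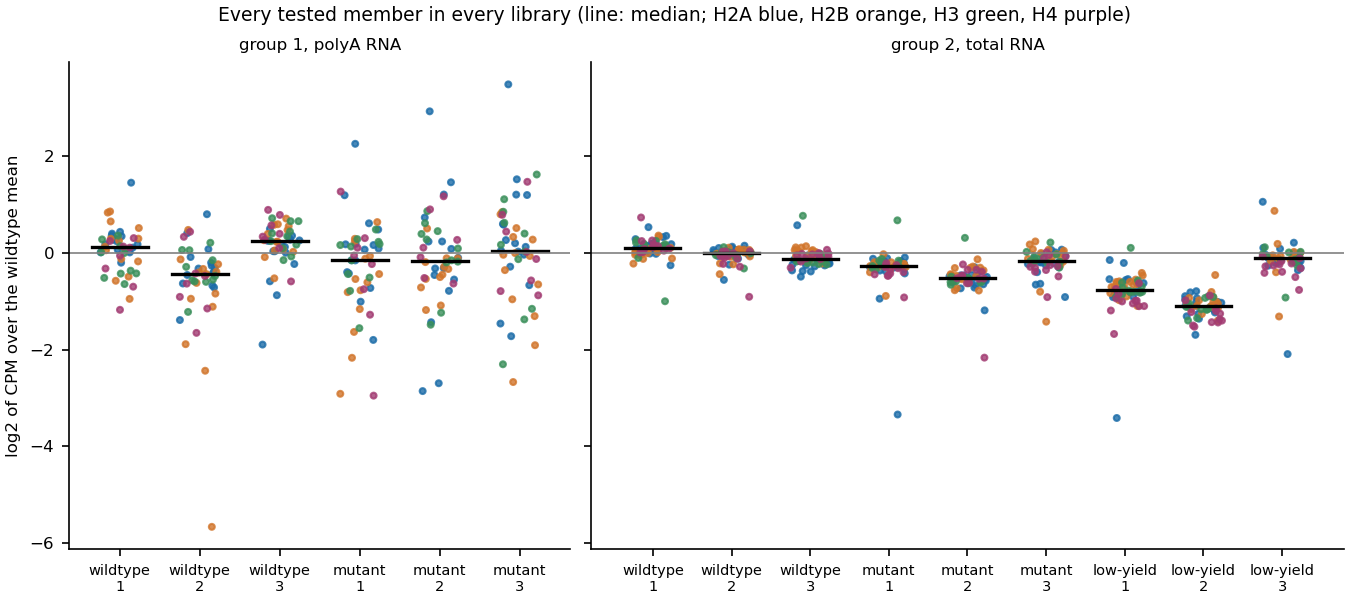
Log2 of the CPM of each tested member over its wildtype mean (y axis) in every library (x axis), with the median as a line. Members at 0 counts in a library are not drawn. In total RNA most members lie close to the median, with single ones as far as -3.41, and the median falls to -1.10 in low-yield replicate 2 and is -0.11 in replicate 3.

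The first test asked which members differed between mutant and wildtype in polyA RNA (edgeR's quasi-likelihood test, adjusted over all genes tested). Of 49 members with enough counts 1 rose and 1 fell at an adjusted p under 0.05. Of all 14048 genes tested 12.6% were called, 5.79% higher and 6.78% lower. The other 5 members (Hist1h2br, H3c14, H4c6, H4c11 and H4c14), with 14 to 120 counts over the table, were below the filter. Of the 49, 28 had a negative and 21 a positive fold change, with a median of -0.08 on the log2 scale, against 48.9% negative and a median of 0.01 over all genes. The mutant libraries lay all below the wildtype ones for 4 members and all above for 4, against 16.6% and 15.0% of all genes tested.

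H2ac11, an H2A gene, was the member that rose. It stood at 0.715, 0.442 and 0.5995 CPM in wildtype and 1.34, 1.35 and 1.68 in mutant libraries, without overlap, on 313 counts over the 6 libraries. The log2 fold change was 1.31 (SE 0.37, edgeR adjusted p = 0.0412). H3c10, an H3 gene, fell: its level was 1.18, 0.769 and 1.27 CPM in wildtype and 0.364, 0.383 and 0.217 in mutant libraries, on 223 counts. The log2 fold change was -1.74 (SE 0.47, edgeR adjusted p = 0.0338). Only 34.6% of the words of H2ac11 and 9.58% of those of H3c10 are unique. Leaving out any 1 of the 6 libraries ended both calls, at edgeR adjusted p-values of 0.063 to 0.158 for H2ac11 and 0.054 to 0.153 for H3c10. With the replicate number as a block both calls were made (edgeR adjusted p = 0.021 and 0.016) and 2863 genes were called in all in place of 1766.

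Hist1h2al, annotated as a pseudogene although its symbol has no -ps, stood at 0.174, 0 and 0.0171 CPM in wildtype and 0.304, 0.484 and 0.712 in mutant libraries, on 85 counts. The wildtype value of 0 allows up to 0.0577 CPM. Its log2 fold change of 2.97 (SE 0.94) did not pass (edgeR adjusted p = 0.0504) but passed with the block (edgeR adjusted p = 0.027). H3c3, the highest H3 gene per length in these libraries, stood at 2.46, 2.54 and 2.31 CPM in wildtype and 3.40, 3.33 and 4.39 in mutant libraries (log2 fold change 0.61, edgeR adjusted p = 0.105). The abundant H2A genes showed no such separation. Hist1h2ap was at 369.1, 227.2 and 339.4 CPM in wildtype and 280.4, 249.5 and 303.8 in mutant libraries, and H2ac12 at 64.6, 38.7 and 76.6 against 67.0, 63.5 and 61.9.

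In total RNA nearly all members had lower mean levels in the mutant than in the wildtype libraries, though few passed the test singly. Of 58 members tested 57 had a negative fold change, with a median of -0.29, against 51.3% negative and a median of -0.01 over all 15024 genes. Fold changes ran from -2.06 for H2ac14 to 0.34 for H3c14, the exception, which has no unique words. By class the median was -0.30 for H2A, -0.25 for H2B, -0.30 for H3 and -0.34 for H4. All 3 mutant libraries lay below all 3 wildtype ones for 28 members and above for 0, against 11.8% and 11.5% of all genes. H2ac1, with 27 counts, was the member not tested.

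Single members mostly did not pass. In edgeR's test 1 of 58 was called, H2bc21, which fell, against 6.27% of all genes called and 2.95% called lower, and 7 had an unadjusted p under 0.05 against 20.4%. H2bc21 stood at 7.18, 4.13 and 5.50 CPM in wildtype and 3.02, 3.28 and 2.09 in mutant libraries, without overlap. The log2 fold change was -1.03 (SE 0.29, edgeR adjusted p = 0.0488). Leaving out wildtype replicate 1 or 3, any mutant replicate or low-yield replicate 1 ended the call, at edgeR adjusted p-values of 0.0634 to 0.226. A fit on the 6 compared libraries ended it too (edgeR adjusted p = 0.0573). In polyA RNA, where its level was similar, H2bc21 stood at 3.32, 6.51 and 3.00 CPM in the mutant libraries, overlapping the wildtype ones (log2 fold change -0.80, SE 0.29, edgeR adjusted p = 0.111).

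After H2bc21 the smallest adjusted p-values were those of H2ac14 (0.0913), H4c4 (0.0933) and H2ac21 (0.0953), by edgeR's test. H4c4, all of whose words are unique and whose promoter is shown above, stood at 698.6, 607.4 and 600.7 CPM in wildtype and 482.3, 457.1 and 496.9 in mutant libraries. The groups did not overlap, and the log2 fold change was -0.41 (SE 0.13, edgeR adjusted p = 0.0933). H4c8 stood at 1432, 1212 and 1173 CPM in wildtype and 919.6, 823.5 and 908.1 in mutant libraries (log2 fold change -0.53, SE 0.24, edgeR adjusted p = 0.266). All 9 libraries of group 2 share one estimate of the spread. With low-yield replicate 3 left out of it, 7 of 58 members were called in this comparison, all lower, against 2.96% of 15542 genes called lower: H4c8, H4c4, H4c1, H2ac21, H2bc21, H4c6 and H4c3. The median over members was then again -0.29. Leaving out low-yield replicate 1 instead gave 0 members, against 2.18% of 15577 genes called lower, and replicate 2 gave 3, against 2.44% of 15548.

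The low-yield mutant was compared with the same wildtype libraries, so the comparison shares its controls with the one above. Of 58 members 8 were called lower and 0 higher, against 5.86% and 6.68% of 15024 genes. An unadjusted p under 0.05 was reached by 36 members, against 26.5% of all genes. The fold change was negative for 57 of 58, with a median of -0.58 against -0.00 over all genes, of which 50.4% were negative. The class medians were -0.54 for H2A, -0.52 for H2B, -0.62 for H3 and -0.79 for H4. For 26 members all low-yield libraries lay below all wildtype ones, against 14.6% of all genes. Without replicate 3 the count was 50 of 58, all lower, against 5.99% of 15542 genes called lower, with a median of -0.90 and class medians of -0.85, -0.82, -0.94 and -1.15. Leaving out low-yield replicate 1 instead gave 2 members, against 2.45% of 15577 genes called lower, and replicate 2 gave 3, against 2.48% of 15548. Those not called without replicate 3 were Hist1h4m, H2ac20, H2bc15, H2ac19, H2bc21, H2ac13, Hist1h2ao and H3c14.

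**Figure D4:**
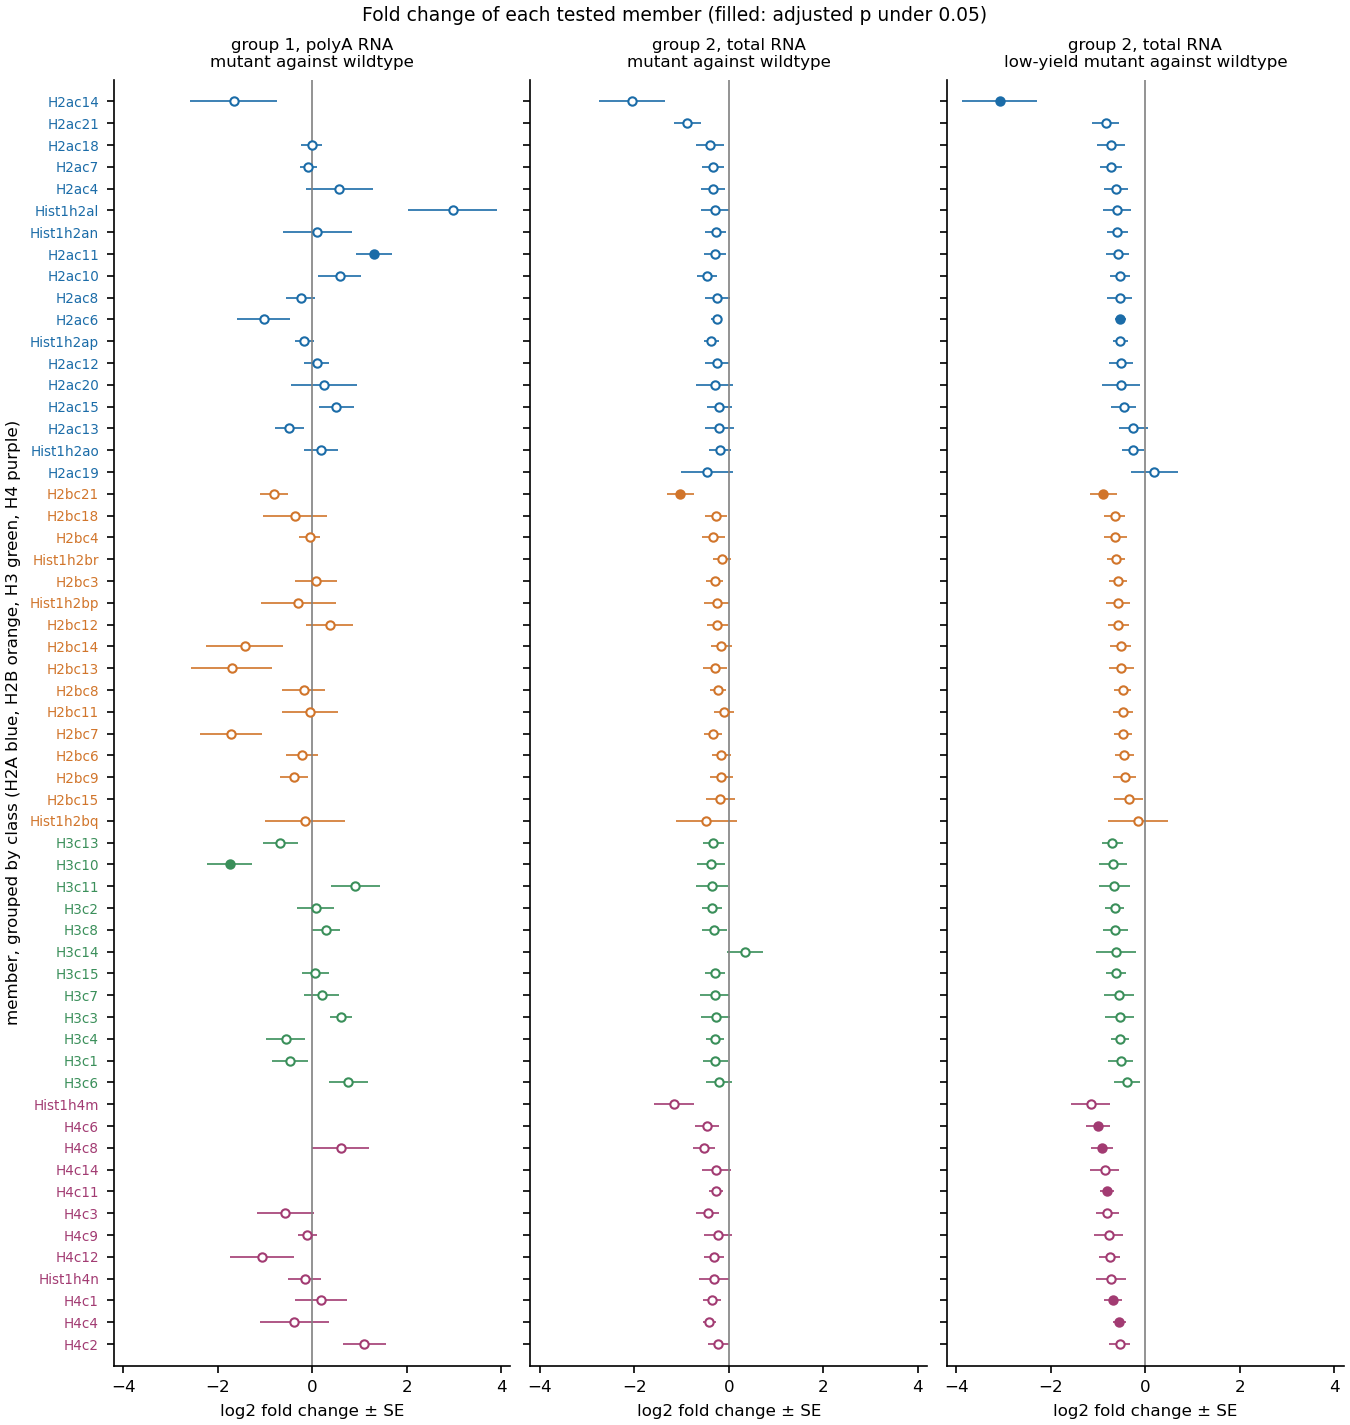
Log2 fold change ± SE (x axis) of every tested member (y axis, grouped by class) in polyA RNA and in the 2 comparisons of total RNA, with filled points at an adjusted p under 0.05. Fold changes scatter to both sides of 0 in polyA RNA and lie below 0 for 57 of 58 members in each comparison of total RNA.

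Of the 8 members called in the low-yield comparison 5 were H4 genes, each with at least 72.5% unique words. H4c11, the member with the smallest p, stood at 79.9, 81.0 and 77.8 CPM in the wildtype libraries. The mutant libraries held 66.7, 67.4 and 64.2 CPM and the low-yield ones 40.1, 34.6 and 60.6. The 3 groups did not overlap. The log2 fold change of low-yield against wildtype was -0.81 (SE 0.16, edgeR adjusted p = 0.00518), and -1.09 without replicate 3 (edgeR adjusted p = 1.13e-05). H4c11 was called in each of the 17 alternatives.

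H4c4 stood at 411.2, 345.4 and 545.6 CPM in the low-yield libraries, all below its wildtype values of 600.7 to 698.6 (log2 fold change -0.55, SE 0.13, edgeR adjusted p = 0.0173). H4c6 went from 198.8, 136.5 and 164.1 CPM in wildtype to 72.9, 57.8 and 117.6 (log2 fold change -1.004, SE 0.26, edgeR adjusted p = 0.0424). Replicate 3 was the highest low-yield library for both. H4c8 stood at 592.9, 469.5 and 954.9 CPM in the low-yield libraries (log2 fold change -0.92, SE 0.24, edgeR adjusted p = 0.0442). H4c1 went from 553.8, 500.1 and 518.7 CPM in wildtype to 291.2, 236.8 and 443.8 (log2 fold change -0.69, SE 0.19, edgeR adjusted p = 0.0467). Leaving out low-yield replicate 3 made all 4 larger, with log2 fold changes of -0.75 for H4c4, -1.35 for H4c6, -1.26 for H4c8 and -0.99 for H4c1. Leaving out low-yield replicate 1 ended all 4 calls, at edgeR adjusted p-values of 0.0844, 0.16, 0.156 and 0.162. Leaving out wildtype replicate 1 did so too (0.0639, 0.12, 0.131 and 0.147), and the calls of H4c6, H4c8 and H4c1 were also lost without wildtype replicate 2 or 3 or any mutant replicate. Low-yield replicate 2 decided the calls of H4c4, H4c6 and H4c1, which without it stood at 0.0639, 0.0553 and 0.054.

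The other called members were 2 H2A genes and H2bc21. Without replicate 3 H2ac6 had a log2 fold change of -0.66 and H2ac14 one of -4.40, and both were called. H2ac6, with 94.4% unique words, stood at 104.4, 111.2 and 102.1 CPM in wildtype, 98.0, 75.1 and 92.5 in mutant libraries and 72.7, 61.2 and 85.4 in low-yield ones. Wildtype values lay above those of both other groups (log2 fold change of low-yield against wildtype -0.53, SE 0.12, edgeR adjusted p = 0.00865), and only leaving out low-yield replicate 2 ended the call (edgeR adjusted p = 0.0595). H2ac14, an annotated pseudogene with 10.4% unique words, was near the detection limit, at 0.854, 0.693 and 1.51 CPM in wildtype and 0.0959, 0 and 0.240 in low-yield libraries. The value of 0 allows up to 0.0913 CPM, and the log2 fold change of -3.08 (SE 0.80, edgeR adjusted p = 0.0165) was lost without wildtype replicate 3, low-yield replicate 1 or low-yield replicate 2 (0.0906, 0.0819 and 0.0897). H2bc21 stood at 2.85, 4.08 and 2.25 CPM in the low-yield libraries (log2 fold change -0.89, SE 0.28, edgeR adjusted p = 0.0495). Unlike the H4 genes its lowest low-yield library was replicate 3, and without that library the fold change was -0.68 (edgeR adjusted p = 0.164). Its call was also lost without wildtype replicate 1 or 3, any mutant replicate or low-yield replicate 1 (0.0534 to 0.154).

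**Figure D5:**
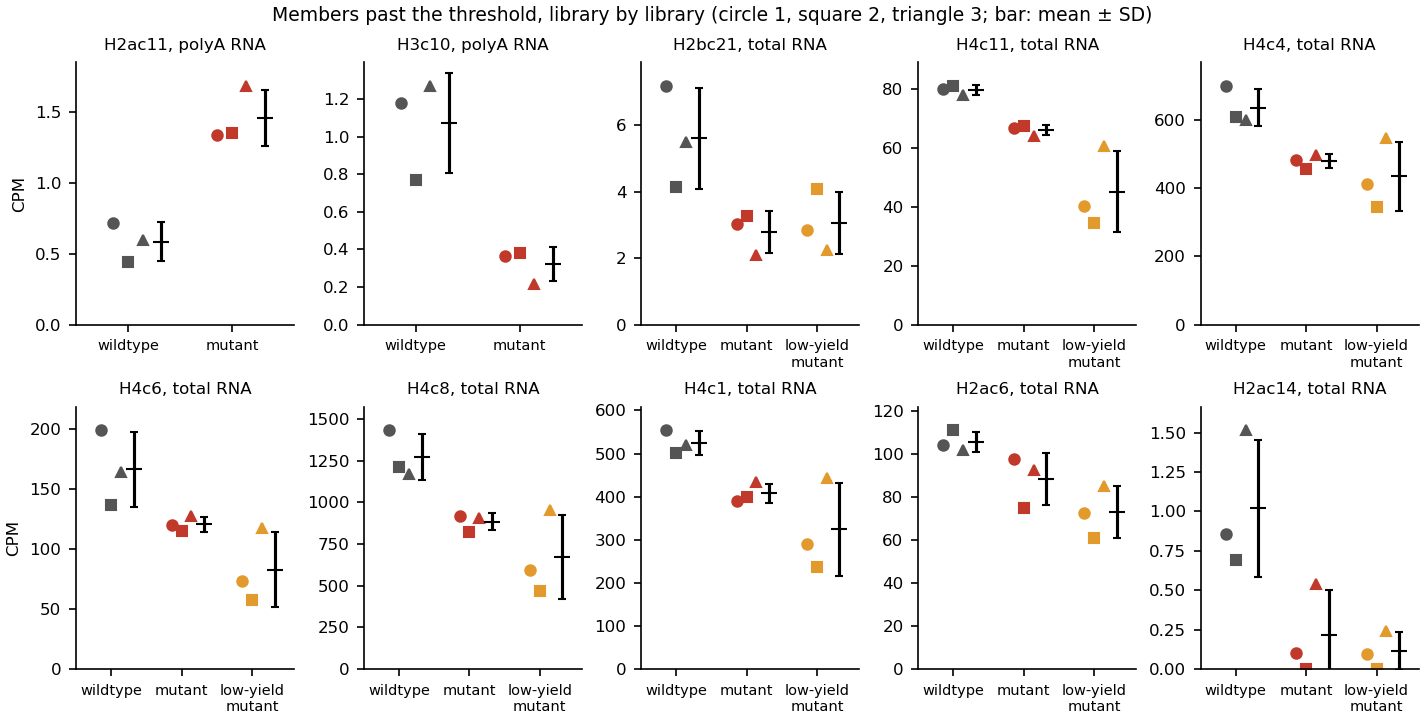
CPM (y axis, from 0) of the 10 members called in any comparison, by library, with bars for the mean ± SD of 3 libraries. Low-yield replicate 3 (triangle) is the highest low-yield library for the H4 and H2A genes and the lowest for H2bc21.

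The most abundant members moved by similar amounts without passing. H2ac18 stood at 3194, 2772 and 2307 CPM in wildtype, 2263, 1676 and 2353 in mutant libraries and 1463, 1112 and 2389 in low-yield ones, with overlap through replicate 3 of both mutant groups. H3c15 stood at 2150, 2507 and 2279 CPM in wildtype, 2015, 1537 and 2115 in mutant libraries and 1227, 1230 and 2069 in low-yield ones, all lower than wildtype. H3c13 and H3c15 had log2 fold changes of -0.70 and -0.62 in the low-yield comparison (edgeR adjusted p = 0.0847 and 0.108), and of -0.97 and -0.91 without replicate 3 (edgeR adjusted p = 0.000728 and 0.000294). Hist1h4n, the leading H4 gene, ran from 1335, 1351 and 1274 CPM in wildtype to 663.4, 500.0 and 1221 in low-yield libraries. H2bc12, H2bc3 and H2bc4 had all their low-yield values below all their wildtype ones, for H2bc4 at 254.2, 202.0 and 418.1 against 450.0, 473.6 and 433.3.

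The size of the shift was similar in subsets of the members, whose differences were not tested. In the low-yield comparison the median log2 fold change was -0.57 for 48 members on chromosome 13 and -0.67 for 10 on chromosome 3. It was -0.55 for 18 members with at least 80% unique words and -0.62 for 25 with under 50%. Without replicate 3 these medians were -0.87, -0.97, -0.88 and -0.91. In the mutant comparison the same medians were -0.29, -0.31, -0.28 and -0.31. Of the 8 low-yield calls, 5 were among the 18 mostly unique members and 1 among the 25 with few unique words.

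Low-yield and other mutants were compared within the fit over all 9 libraries. In edgeR's test 0 of 58 members were called, against 0.0% (0 of 15024) of all genes, and 4 members had an unadjusted p under 0.05, against 3.19% of all genes. DESeq2 and voom with quality weights also called 0 members. The fold change was negative for 54 of 58, with a median of -0.30 against 0.00. Without low-yield replicate 3, 11 members were called, all lower, against 0.116% of 15542 genes called lower, whereas leaving out replicate 1 or 2 gave 0 members: the H4 genes H4c1, H4c6, H4c8, H4c9, H4c11, H4c12, H4c14 and Hist1h4n and the H2B genes H2bc11, H2bc12 and H2bc18. H4c11 then had a log2 fold change of -0.82 (edgeR adjusted p = 0.00356) and H4c9 one of -1.004 (edgeR adjusted p = 0.00443).

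Whether the mutant effect differed between the 2 groups of mice was tested as an interaction over 12 libraries. Of 54 members 0 were called by edgeR against 0.0188% of 15954 genes, and 8 had an unadjusted p under 0.05 against 2.14%. DESeq2 called 5 members, against 12 of 15954 genes, and voom with quality weights 0. H2ac11, which rose in polyA RNA, had an interaction of -1.58 (SE 0.32, edgeR adjusted p = 0.342). In total RNA it stood at 230.4, 229.6 and 201.7 CPM in wildtype and 206.4, 144.9 and 191.9 in mutant libraries. The groups of mice and the kinds of RNA cannot be told apart in this test.

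Close relatives outside the rule were also far higher in total than in polyA RNA. The total-to-polyA ratios of the linker histone genes H1f1 to H1f5 ran from 163.9 for H1f2 to 464.9 for H1f1, and that of H4f16 (formerly Hist4h4) was 1327. In the low-yield comparison H4f16 fell from 922.9, 1046 and 1068 CPM in wildtype to 330.2, 314.5 and 632.9 (log2 fold change -1.25, SE 0.27, edgeR adjusted p = 0.0277). H1f1, H1f2, H1f3 and H1f5 had log2 fold changes of -0.44 to -0.57 there and did not pass, and H1f4 had -0.15. Without replicate 3 H4f16 had -1.65, and H1f1, H1f2, H1f3 and H1f5 had -0.78 to -0.86 and were called lower. The relatives H2aw (formerly Hist3h2a) and H2bu2 (formerly Hist3h2ba), did not pass in any comparison in which they were tested. H1f6, a testis linker histone picked after its values were seen, was low in wildtype (1.99, 2.23 and 2.50 CPM) and rose in mutant libraries to 8.67, 2.97 and 5.01 CPM (log2 fold change 1.31, edgeR adjusted p = 0.027).

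Genes that make and destroy histone mRNA were counted as a list. Of 38 tested 1 fell in group 1, 1 rose in the mutants of group 2, and 2 rose and 2 fell in the low-yield mutants, with list medians of 0.02, 0.04 and 0.03. The shares called, in either direction, were 2.63%, 2.63% and 10.5%, against 12.6% and 6.27% of all genes in the first 2 comparisons and 1884 of 15024 genes in the last. Tut7, which adds uridines to histone mRNA before its decay, fell in group 1 (log2 fold change -0.36, SE 0.08, edgeR adjusted p = 0.0125) and in the low-yield mutants (-0.44, adjusted p = 0.0202). Pou2f1, which binds the octamer, rose in both mutant groups of group 2 (0.44 and 0.43, edgeR adjusted p = 0.00707 and 0.00434) from 70.1 to 82.4 CPM in wildtype to 97.8 to 112.4 in mutant libraries. In the low-yield mutants Dis3, a catalytic subunit of the exosome, rose (0.33, adjusted p = 0.0158) and Ncbp3, a cap-binding protein, fell (-0.27, adjusted p = 0.0291). Without low-yield replicate 3, 3 of the list rose and 1 fell; Tut7 (-0.55), Pou2f1 (0.43) and Dis3 (0.37) were called and Ncbp3 was not (-0.26, edgeR adjusted p = 0.0706). With the replicate block in group 1, 3 of the list were called higher, Pou2f1 (edgeR adjusted p = 0.0218) and Dis3 (0.0388) among them, and 2 lower.

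Slbp, the protein that binds the stem-loop, was lower in all 3 comparisons without passing. Its level was 331, 316.2 and 280.5 CPM in wildtype and 288.3, 252.8 and 261.4 in mutant libraries of group 1 (log2 fold change -0.21, edgeR adjusted p = 0.095). In group 2 it was 193.5, 196.8 and 212.1 CPM in wildtype, 184.1, 160.7 and 159.8 in mutant libraries and 177.7, 168.4 and 158 in low-yield ones, both below all wildtype values (log2 fold changes -0.26 and -0.26, edgeR adjusted p = 0.0828 and 0.0537). With the block in group 1 it was called lower (edgeR adjusted p = 0.0298). Npat, the coactivator of histone transcription, and Casp8ap2, Lsm10, Lsm11, Eri1 and Zfp473, which serve histone pre-mRNA cutting or decay, did not pass in any of the 3 comparisons. Their log2 fold changes lay between -0.33 and 0.24.

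Among genes of DNA replication and S phase more fell than rose. Of 51 tested 17 fell and 2 rose in group 1, 8 fell and 0 rose in the mutants of group 2, and 14 fell and 0 rose in the low-yield mutants, with list medians of -0.15, -0.14 and -0.14. Among all genes 6.78%, 2.95% and 5.86% were called lower in these comparisons. The 2 that rose in group 1 were Pold2 and Pola1, subunits of DNA polymerases, and without low-yield replicate 3 again 14 fell and 0 rose. E2f2, an E2F transcription factor of the cell cycle, fell in all 3 (log2 fold changes -0.91, -0.76 and -0.90, edgeR adjusted p = 7.35e-05, 0.000379 and 5.29e-05). In group 2 its level was 128.2, 126.5 and 148.8 CPM in wildtype, 80.5, 84.0 and 74.7 in mutant libraries and 77.1, 64.9 and 74.0 in low-yield ones. E2f1 fell by 0.52, 0.45 and 0.48 and Uhrf1, which reads newly replicated methylated DNA, by 0.46, 0.31 and 0.33 on the log2 scale. The values of E2f2 and E2f1 in low-yield replicate 3 lay between those of replicates 1 and 2.

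Of 26 histone chaperones and their partners 3 rose and 3 fell in group 1, 0 changed in the mutants of group 2, and 2 rose and 2 fell in the low-yield mutants, also without replicate 3. The shares called were 23.1%, 0.0% and 15.4%, against 12.6% and 6.27% of all genes in the first 2 comparisons and 1884 of 15024 genes in the last, and with the replicate block 3 rose and 4 fell in group 1. Tonsl and Mms22l, partners that recognise newly made histones at replication forks, both fell in the low-yield mutants (log2 fold changes -0.35 and -0.31, edgeR adjusted p = 0.0125 and 0.0192). Tonsl also fell in group 1 (-0.37, edgeR adjusted p = 0.0212), as did Hjurp, the chaperone of the centromeric histone (-0.30, edgeR adjusted p = 0.0288). Ipo4, which imports H3 and H4, rose there (0.27, edgeR adjusted p = 0.0181).

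The replication-independent histone variants, whose mRNAs are polyadenylated, served as a contrast. Their total-to-polyA ratios were 0.739 for H2az1, 0.477 for H2az2, 0.582 for H3f3a and 0.585 for H3f3b, and 6.41 for H2ax, a variant known to make both kinds of transcript. Of 11 tested 0 were called in group 1 or in the mutants of group 2, and 1 rose and 2 fell in the low-yield mutants (27.3%), where 1884 of 15024 genes were called. With the replicate block 1 rose and 1 fell in group 1. Of all genes 12.6% were called in group 1 and 6.27% in the mutants of group 2. In the low-yield mutants H2az2 fell from 24.5, 18.6 and 22.0 CPM in wildtype to 11.3, 10.7 and 16.1 (log2 fold change -0.76, SE 0.16, edgeR adjusted p = 0.00644), and H3f3a by 0.30 on the log2 scale (edgeR adjusted p = 0.0438). Without replicate 3, 1 rose and 3 fell, H2az2 (-0.98) and H3f3a (-0.39) among the latter. Of 11 genes of general polyadenylation Cpsf7 fell in group 1 (-0.31, edgeR adjusted p = 0.00953), 9.09% of the list, with 2 lower under the replicate block, and 0 were called in either comparison of group 2, where Cpsf4 and Papola had -0.19 and 0.21 in the mutants (edgeR adjusted p = 0.203 and 0.241).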

How the data were processed

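The authors deposited expected counts per gene for each group of mice, which were whole numbers and were tested as counts. The submitters' processing notes name cutadapt 2.3, FastQC 0.11.8, STAR 2.7.8a, RSEM 1.3.3, MultiQC 1.7 and GRCm38, with no role or order. The annotation release and strand setting are not given in the sources used here. Sample sheets gave labels only. Reporter rows (4 and 5, 5 counts in all) were left out. Members, lists and rules were chosen with earlier results of these data known. The test was edgeR 4.0.16 under R 4.3.3 (TMM, filterByExpr, robust quasi-likelihood, two-sided, Benjamini-Hochberg, threshold 0.05), in 1 fit per group of mice and 1 over 12 libraries for the interaction. A gene past the threshold is called. The fitting was tested on simulated data. CPM per kb divides by the GENCODE M21 exon length.

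Named were the 2 members per class with the highest wildtype level per kb in each group of mice, members called in a comparison, H2bc4, H2bc21, the linker genes, H2aw, H2bu2 and H4f16, called or central genes of histone mRNA processing, the 2 genes with the smallest adjusted p of each other list, and Rpl5. Any other member or gene was chosen after its values were seen. DESeq2 1.42.0 and limma 3.58.1 (voom), other scalings, no filter, left-out libraries and a replicate block were alternatives. Deviations of same-numbered libraries of group 1 were positively correlated (0.441, 0.186 and 0.146), so the block is given there. Wildtype replicate 3 and mutant replicate 2 also reached 0.23, so these values do not establish a pairing.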

Additional observations from a re-analysis of the deposited data

How the results depend on the processing

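The counts of called members were small and depended on single libraries and on the tool. In group 1, 2 members were called, 0 by edgeR's older quasi-likelihood mode (chosen after seeing the data), and 0 to 2 when a library was left out. In the mutants of group 2 the count was 1, with 0 in the older mode and 0 to 7 with a library left out. DESeq2 called 4 members, all lower, against 652 of 15024 genes called lower. A fit on the 6 compared libraries called 6 members, all lower, against 362 of 14413 genes. H2bc21 was not among those 6 (edgeR adjusted p = 0.0573). In the low-yield mutants the count was 8, with 2 to 50 when a library was left out. DESeq2 called 23 members, against 1113 of 15024 genes called lower, and voom with quality weights 29, against 1655. A fit on 6 libraries called 5 members, against 755 of 14443 genes. With no low-count filter 4 were called, against 755 of 23902. Low-yield against mutant gave 0, and 0 to 11 with a library left out. The interaction gave 0, with 5 by DESeq2 and 1 in the older mode, against 12 and 4 of 15954 genes. It gave 0 with any library left out. RLE factors and TMM without the members gave the main counts in all 5 comparisons. The cause of these differences was not tested.

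In group 2 not every pair of same-numbered libraries deviated together, so the numbers were not taken as pairs (correlations with wildtype of 0.241, 0.173 and 0.0245 for the mutants and 0.0836, -0.0681 and 0.0161 for the low-yield mutants). With a replicate block 4 members were called in the mutants, all lower, against 621 of 15024 genes called lower. In the low-yield mutants 16 were called, all lower, against 1112 of 15024 genes. H4c8 (log2 fold change -0.96, edgeR adjusted p = 0.0589) was not among those 16. Over all genes the calls of group 1 went from 1766 to 2863 with the block and to 753 to 1729 with a library left out. Those of group 2 went from 942 to 1452 by DESeq2, 2000 by voom and 425 to 1323 with a library left out. For the low-yield mutants they went from 1884 to 3399 by voom and 900 to 2395. Low-yield against mutant gave 0, with 6, 4 and 0 to 22, and the interaction 3, with 12 by DESeq2 and 5 with the block. The summed class levels kept within the spread of libraries under total-count scaling and without division by length, although in TMM-scaled CPM not divided by length the H3 sums of mutant and wildtype libraries of group 2 overlapped, and no called value of a named gene changed sign. Over 272 values of named genes and 4525 alternatives 129 lost and 98 gained a call. In polyA RNA most members have too few counts for small changes to be seen.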

Other observations

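Outside the members and their relatives, the genes with a total-to-polyA ratio above 100 in wildtype libraries were mainly RNAs known to lack a poly(A) tail. Rpph1, the RNA of RNase P, had a ratio of 6421, Rn7s2 and Rn7s1, RNAs of the signal recognition particle, 2599 and 2204, Rmrp 1066, Rn7sk 938.3 and Scarna2 474.5. Rpph1 stood at 2994, 3360 and 3874 CPM in wildtype, 2734, 2938 and 2092 in mutant libraries and 947.2, 938.4 and 1464 in low-yield ones, so its low-yield values lay below all others. Scarna2 stood at 63.4, 43.9 and 48.2 CPM in wildtype, 43.07, 43.09 and 35.11 in mutant libraries and 47.8, 47.1 and 36.3 in low-yield ones. The mutant values lay below all wildtype ones, while the low-yield values overlapped them. These RNAs were picked after their values were seen, and no test was made on them.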
